A study of Sus scrofa with 9 samples.

Results

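Nascent transcription of 8 genes of the Z-disc, the desmin filament and the sarcoglycan complex was followed through 3 zones of the infarcted pig heart. The genes are CSRP3, ACTN2, TCAP, MYOZ2, CMYA5, DES, SGCA and SGCB, taken by name from the 3890 genes with a symbol in the deposited table. They hold 12 of its 4882 transcript positions, and for each gene the position with the longest span stands for the gene. All 8 genes passed the filter of a mean of at least 0.5 RPKM, which kept 2384 positions for testing. The 8 genes were chosen with earlier results of these data known. Their counts beside the shares of all positions are therefore descriptions, not tests of the set.

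Ischemic, border zone and healthy myocardium were compared, with 1 library of each zone from each of 3 female farm pigs. An embolization coil had occluded the distal part of the left anterior descending artery, and the tissue was collected 24 hours later, so the healthy zone is also tissue of an infarcted heart. GRO-seq labels RNA in nuclei where polymerases resume transcription. The values therefore reflect polymerases at work, averaged over the annotated span, rather than amounts of mature mRNA. The nuclei came from cells released by collagenase and passed through a mesh, so only cells released by that step were sampled.

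The Z-disc is the plate at the end of each sarcomere, where thin filaments of neighbouring sarcomeres are crosslinked and titin is anchored. Desmin filaments tie the Z-discs of a heart muscle cell to each other and to its membrane. At the membrane the sarcoglycans stabilise the dystrophin complex, which links the cytoskeleton to the surrounding matrix, and inherited defects of many of these proteins cause muscle or heart muscle disease.

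Library totals, recovered from the RPKM values as whole reads, ranged from 883656 to 2134087 in ischemic, from 2187977 to 7005976 in border zone and from 2730083 to 6531658 in healthy myocardium. The ischemic libraries were the shallowest. The reads are given for some weak values only, so a value printed without them may also rest on few reads. Of the 20 heart muscle cell markers listed, 13 were in the table and 12 were measured, while CKM, the muscle creatine kinase, was listed at 0 in all libraries. Their summed level was 78.8 to 256 RPKM in ischemic, 179 to 305 RPKM in border zone and 367 to 626 RPKM in healthy libraries, so the tissue carried the transcripts its label names.

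Transcription of these genes was lower in ischemic than in healthy myocardium in all 3 pigs, but to very different extents. CSRP3, ACTN2, MYOZ2, CMYA5 and SGCA had 12.1% to 17.9% of their healthy mean in ischemic myocardium, whereas TCAP had 45.4%, SGCB 40.3% and DES 71.5%. By limma on log2(RPKM + 0.1), with Benjamini-Hochberg adjustment over all 2384 positions, 6 of the 8 genes fell and 0 rose, while 9.1% of all positions fell and 18.5% rose. With the position of most exon bases standing for CMYA5, 5 of the 8 genes fell. Its mean at that position was 3.85 RPKM in ischemic and 9.99 RPKM in healthy myocardium. In all 8 genes every ischemic value lay below every healthy value, which held for 14.9% of all positions. The median log2 fold change was -2.39 for the 8 genes and 0.21 for all positions. With equal library medians 295 positions fell and 337 rose in place of 217 and 442, with quantile normalization 251 fell and 249 rose, and under either scaling 7 of the 8 genes fell. In bulk tissue a smaller number of heart muscle nuclei and less transcription per nucleus cannot be told apart.

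**Figure D1:**
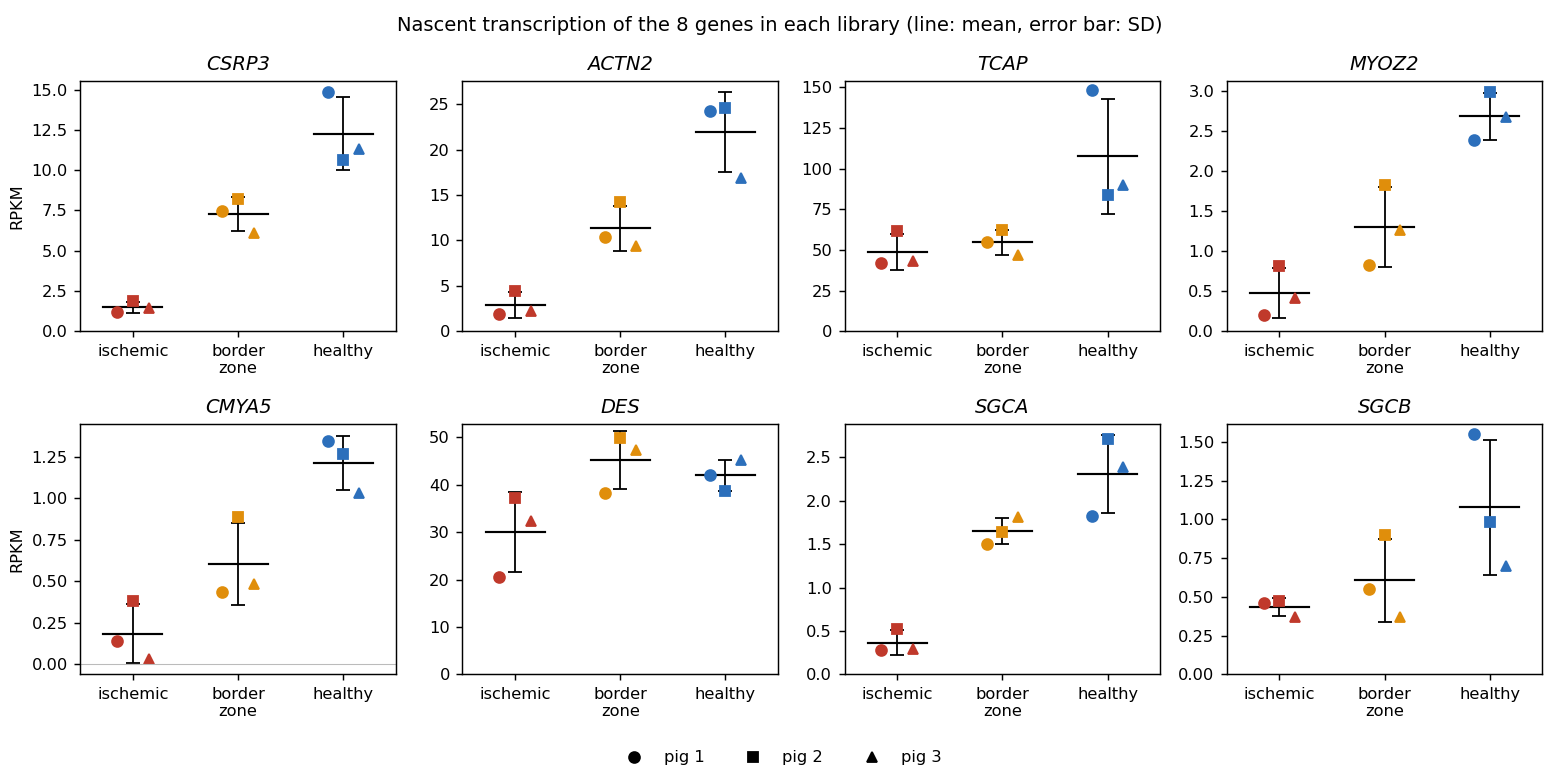
RPKM of each gene in each library, with ischemic, border zone and healthy groups from left to right, a symbol for each pig, a line for the mean and an error bar for the SD (n = 3). The ischemic points lie below the healthy points in every panel, the border zone points of DES lie among the healthy ones, and those of TCAP overlap the ischemic ones.

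CSRP3 and ACTN2, both of the core of the Z-disc, fell by nearly the same amount. CSRP3 encodes muscle LIM protein, which binds alpha-actinin and is held to act in the sensing of stretch (NM_001172368, chromosome 2 from 43258339 to 43279704 on susScr3). It had 1.18, 1.85 and 1.43 RPKM in ischemic, 7.49, 8.22 and 6.12 RPKM in border zone and 14.8, 10.6 and 11.3 RPKM in healthy myocardium of pigs 1 to 3. The 3 zones did not overlap, and each pig showed the same order of zones. The ischemic fold change against healthy was 7.83-fold down (log2 fold change -2.97 ± 0.25, ± SE, limma adjusted p = 0.000337).

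ACTN2, the alpha-actinin of striated muscle, crosslinks thin filaments in the Z-disc (NM_001243666, chromosome 14 from 58645071 to 58717200). Its levels were 1.86, 4.47 and 2.27 RPKM in ischemic, 10.3, 14.2 and 9.42 RPKM in border zone and 24.3, 24.6 and 16.8 RPKM in healthy libraries of pigs 1 to 3. Again no zone overlapped another, and pig 2 was the highest within each. It fell 7.82-fold in ischemic against healthy myocardium (log2 fold change -2.97 ± 0.36, limma adjusted p = 0.00141). CSRP3 and ACTN2 ranked 52nd and 53rd from the lowest fold change among the 2384 positions.

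MYOZ2 encodes calsarcin-1, which ties the phosphatase calcineurin to alpha-actinin at the Z-disc (NM_001044593, chromosome 8 from 112235080 to 112390176). Over that span it had 0.205, 0.819 and 0.416 RPKM in ischemic, 0.824, 1.82 and 1.26 RPKM in border zone and 2.39, 2.98 and 2.67 RPKM in healthy libraries. Ischemic pig 2 came close to border zone pig 1, but the zones did not overlap. Only 0.682% of this span is exon and the table lists the transcript on both strands, so the span may join parts of the gene placed apart on this build. The gene fell 5.28-fold in ischemic against healthy myocardium (log2 fold change -2.40 ± 0.42, limma adjusted p = 0.00531).

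CMYA5 encodes myospryn, a large protein of the costamere that binds alpha-actinin and desmin. At its longest span (chromosome 2 from 90185212 to 90291742, plus strand) it had 0.141, 0.378 and 0.0319 RPKM in ischemic, 0.436, 0.886 and 0.485 RPKM in border zone and 1.34, 1.27 and 1.03 RPKM in healthy libraries. The zones did not overlap, and ischemic pig 3 rested on 3 reads. The table lists this transcript on both strands of the region, so the longest span may join parts of the gene placed apart on this build. That span holds 622 exon bases, and a minus-strand position inside it holds 11410. At the longest span the log2 fold change of ischemic against healthy was -2.40 ± 0.50 (limma adjusted p = 0.0112). At the minus-strand position it was -1.42 ± 0.53 and did not pass (limma adjusted p = 0.0777).

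TCAP encodes telethonin, which caps the end of titin at the Z-disc (NM_001145754, chromosome 12 from 23107378 to 23108618), and it showed another pattern. It had 41.9, 61.5 and 42.9 RPKM in ischemic, 55.0, 62.2 and 46.8 RPKM in border zone and 148, 84.0 and 90.1 RPKM in healthy myocardium. Ischemic and border zone values overlapped, and both groups lay below all healthy values. The fall in ischemic against healthy myocardium was 2.16-fold (log2 fold change -1.11 ± 0.30, limma adjusted p = 0.0291). That call was lost without ischemic replicate 1 (adjusted p = 0.0869), ischemic replicate 3 (0.0799), healthy replicate 1 (0.0632) or healthy replicate 3 (0.0515), and in a fit on the 2 groups alone (0.0709).

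DES encodes desmin, the muscle intermediate filament (NM_001001535, chromosome 15 from 134560511 to 134567338). It had 20.6, 37.1 and 32.3 RPKM in ischemic, 38.3, 49.9 and 47.2 RPKM in border zone and 42.1, 38.6 and 45.2 RPKM in healthy libraries. Border zone and healthy values overlapped, and pig 1 was the lowest of the ischemic and of the border zone group. The ischemic difference from healthy was a log2 fold change of -0.52 ± 0.28, which did not pass the threshold (limma adjusted p = 0.196), although the groups did not overlap. With quantile normalization it passed, at -1.09 (adjusted p = 0.0475). Desmin is also made by smooth muscle, and of the 10 smooth muscle markers listed 4 were in the table, with a summed level of 4.47 to 4.77 RPKM in ischemic, 2.92 to 3.71 RPKM in border zone and 2.39 to 3.15 RPKM in healthy libraries. The part of such cells in the DES values was not tested.

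The 2 sarcoglycan genes encode subunits of the same membrane complex and gave unlike values. SGCA, alpha-sarcoglycan (NM_001144122, chromosome 12 from 26395353 to 26406984), had 0.282, 0.528 and 0.292 RPKM in ischemic, 1.50, 1.64 and 1.81 RPKM in border zone and 1.83, 2.71 and 2.38 RPKM in healthy libraries. The ischemic values stood far below the others, on 7, 7 and 3 reads, while the highest border zone value nearly reached the lowest healthy value. SGCA fell 5.23-fold in ischemic against healthy myocardium (log2 fold change -2.39 ± 0.26, limma adjusted p = 0.00102).

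SGCB, beta-sarcoglycan (NM_001114287, chromosome 8 from 41306153 to 41324541), had 0.459, 0.477 and 0.369 RPKM in ischemic, 0.551, 0.900 and 0.373 RPKM in border zone and 1.55, 0.984 and 0.699 RPKM in healthy libraries. Its ischemic values rested on 18, 10 and 6 reads, and its healthy values spread over more than those of any other of the 8 genes, with an SD of 40.3% of the mean. The log2 fold change of -1.08 ± 0.37 missed the threshold (limma adjusted p = 0.0603), but the paired fit, which takes pig as a block, called it (adjusted p = 0.0414), as did equal library medians (adjusted p = 0.0331).

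Within a library the ratio of 2 RPKM values does not depend on scaling, but few reads leave it imprecise. SGCA over SGCB was 0.615, 1.11 and 0.790 in ischemic, 2.72, 1.83 and 4.85 in border zone and 1.18, 2.75 and 3.41 in healthy myocardium of pigs 1 to 3. The ischemic ratios lay below all others. The test took the ratio on the log2 scale with 0.1 RPKM added to each gene, so it depends on that pseudocount. The ischemic minus healthy difference was then -1.31 (exact permutation test, p = 0.1, the smallest that 3 against 3 libraries allow, and 0.129 adjusted over 9 ratio tests). The ratio was lower in 3 of 3 pigs, and the difference lay between -1.73 and -0.75 over its 8 alternatives.

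In the border zone the mean of DES lay near healthy and that of TCAP near ischemic myocardium. The means of the other genes lay between those of the 2 other zones. By limma 0 of the 8 passed against healthy, where 0.21% of all positions were called lower. At an unadjusted p under 0.05, 4 of the 8 were lower, against 3.57% of all positions. Limma-voom on the recovered reads called 1.64% of all positions lower and 4 of the 8 genes, namely ACTN2 (adjusted p = 0.0383), CSRP3 (0.0298), MYOZ2 (0.0400) and TCAP (0.0263). In 6 of the 8 genes every border zone value lay below every healthy value, against 6.71% of all positions, and the exceptions were DES and SGCB. At the minus-strand position of CMYA5 these values overlapped. Border zone means were 48.6% to 59.3% of healthy for CSRP3, ACTN2, TCAP, MYOZ2, CMYA5 and SGCB, 71.6% for SGCA and 108% for DES. The log2 fold changes ran from -1.05 ± 0.42 for MYOZ2 (adjusted p = 0.196) to 0.10 ± 0.28 for DES (adjusted p = 0.887), which was -0.16 with equal library medians. Both comparisons with healthy myocardium use the same 3 healthy libraries, so their values are not independent.

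**Figure D2:**
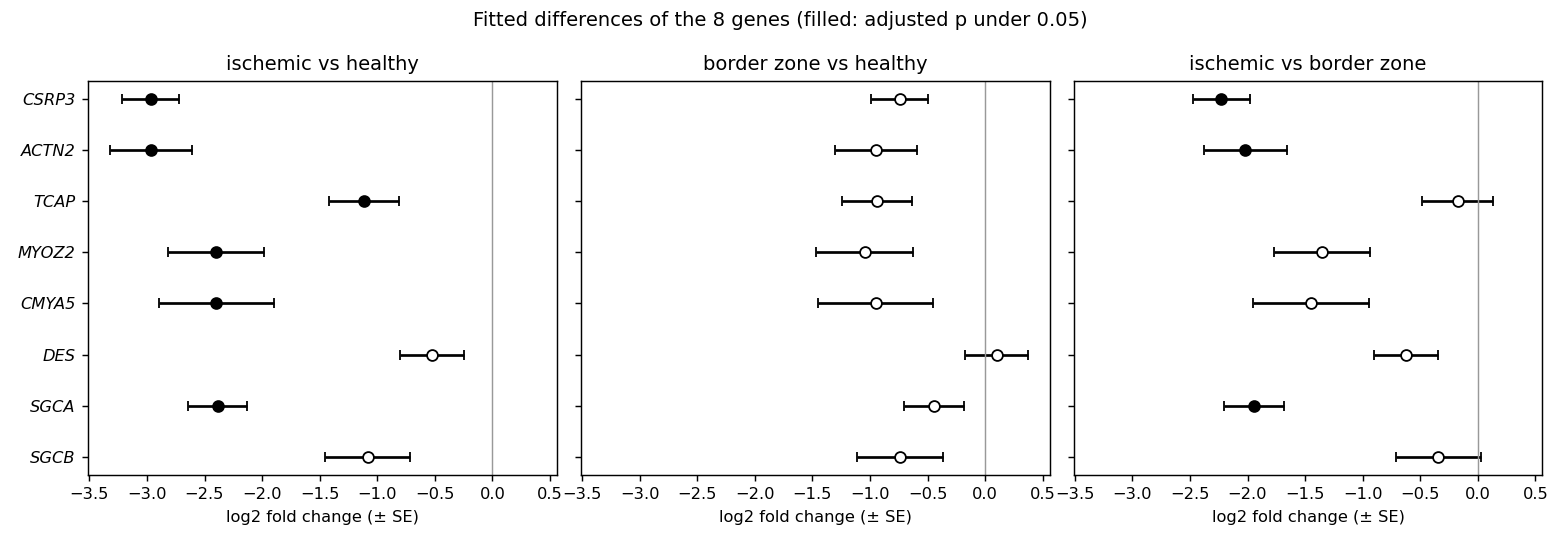
Log2 fold change of each gene in 3 comparisons, with error bars for the SE of the limma fit and filled points for an adjusted p under 0.05. CSRP3, ACTN2 and SGCA are filled in the ischemic against border zone panel, where TCAP lies at -0.18 and SGCB at -0.34.

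Between ischemic and border zone myocardium, 3 of the 8 genes fell and 0 rose, while 0.965% of all positions fell and 0.168% rose. CSRP3 had a log2 fold change of -2.23 ± 0.25 (limma adjusted p = 0.0173), ACTN2 had -2.02 ± 0.36 (adjusted p = 0.0478) and SGCA had -1.94 ± 0.26 (adjusted p = 0.0310). In 6 of the 8 genes all ischemic values lay below all border zone values, which held for 11.5% of all positions, and TCAP and SGCB were the exceptions. At the minus-strand position of CMYA5 these values overlapped. TCAP had -0.18 ± 0.30 (adjusted p = 0.821), SGCB had -0.34 ± 0.37 (adjusted p = 0.692) and DES had -0.62 ± 0.28 (adjusted p = 0.329).

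These calls were near the threshold. CSRP3 missed it without ischemic replicate 3 (limma adjusted p = 0.0724), any border zone replicate (0.0546, 0.0557 and 0.0673 for 1 to 3) or healthy replicate 3 (0.0537), with log2 fold changes from -2.38 to -2.08 over the 9 libraries left out in turn. SGCA missed it without ischemic replicate 3 (0.0847), border zone replicates 1 to 3 (0.0639, 0.0906 and 0.0736) or healthy replicates 1 and 3 (0.0562 and 0.0537). ACTN2 missed it without ischemic replicates 1 and 3 (0.0782 and 0.154), border zone replicates 1 to 3 (0.121, 0.172 and 0.113) or healthy replicates 1 to 3 (0.0762, 0.0902 and 0.0738). CSRP3 alone passed with equal library medians, with quantile normalization or without the filter on low values, and none of the 3 did in a fit on the 2 groups alone. Limma-voom called these 3 and MYOZ2 (adjusted p = 0.0321) lower, beside 65 of all 2384 positions.

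The ratios of genes within a library set the unlike patterns side by side. These 2 ratios were chosen after the values were seen and are given without a test. TCAP over CSRP3 was 35.4, 33.3 and 30.0 in ischemic, 7.34, 7.56 and 7.65 in border zone and 9.99, 7.90 and 7.97 in healthy myocardium of pigs 1 to 3. It was thus of like size in border zone and healthy tissue and several times higher in all 3 ischemic libraries. DES over ACTN2 was 11.0, 8.30 and 14.2 in ischemic, 3.70, 3.52 and 5.01 in border zone and 1.74, 1.57 and 2.69 in healthy myocardium, with no overlap between any of the zones.

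The table holds MYOZ2 at 3 positions and CMYA5 at 3, which differ in span, strand and value. For MYOZ2, a position of 747 bp on the same strand had 6.27, 19.9 and 21.2 RPKM in ischemic, 16.6, 31.3 and 15.9 RPKM in border zone and 50.5, 38.3 and 36.3 RPKM in healthy libraries. It also fell against healthy (log2 fold change -1.57 ± 0.50, limma adjusted p = 0.0478), and its ischemic and border zone values overlapped. A position of 170 bp lies within the long span on the plus strand, opposite to the gene. Its reads numbered 0, 0 and 2 in ischemic, 13, 59 and 7 in border zone and 46, 23 and 72 in healthy libraries. A count of 0 allows up to 8.27 RPKM in ischemic replicate 1 and up to 15.5 RPKM in ischemic replicate 2, counting error alone. All positions of MYOZ2 were thus lower in every ischemic than in every healthy library.

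For CMYA5 the long plus-strand span holds 622 exon bases, 0.584% of its length, while a span of 35440 bp inside it on the minus strand holds 11410 exon bases. The minus-strand position had 4.92, 4.92 and 1.72 RPKM in ischemic, 3.04, 7.38 and 3.04 RPKM in border zone and 13.9, 9.87 and 6.26 RPKM in healthy libraries. Its ischemic and healthy values did not overlap, but the difference did not pass (log2 fold change -1.42 ± 0.53, limma adjusted p = 0.0777). With this position in place of the long span, 5 of the 8 genes fell in ischemic against healthy myocardium. The third position, of 33138 bp on an unplaced scaffold, was listed at 0 in all libraries. The outer plus-strand span held 81, 939 and 1569 reads over the ischemic, border zone and healthy libraries, fewer than the 625, 2451 and 3987 reads of the minus-strand position nested in it, so reads were counted by strand.

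**Figure D3:**
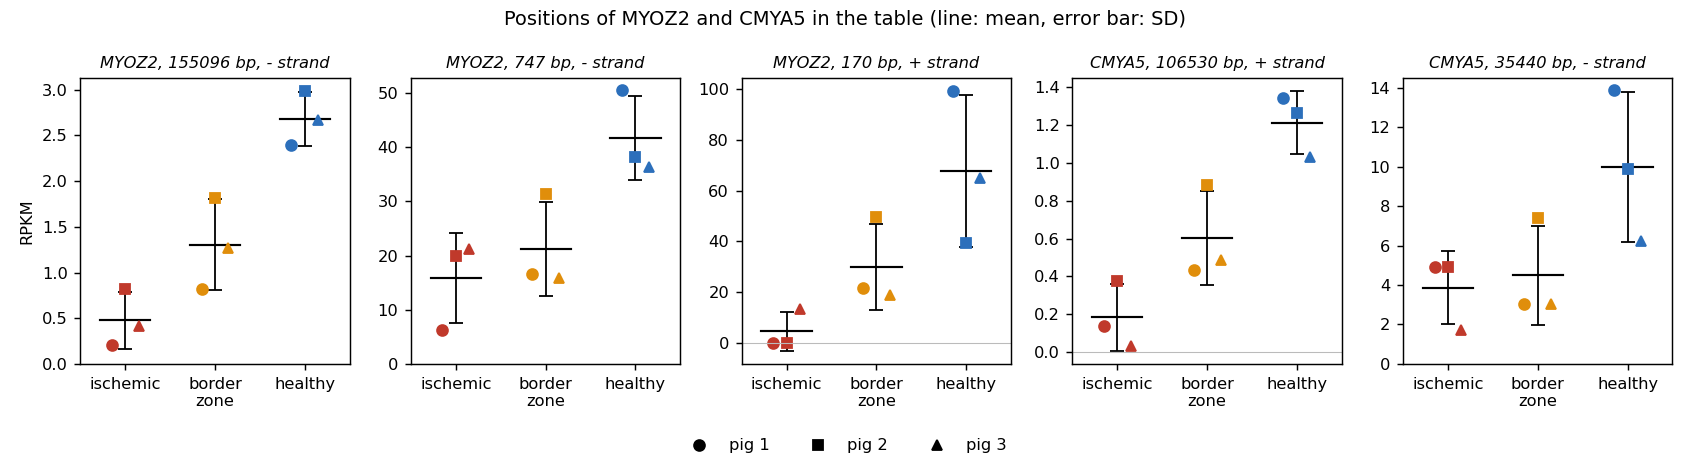
RPKM in each library at the positions of MYOZ2 and CMYA5 that held reads, with ischemic, border zone and healthy groups from left to right, symbols for pigs, lines for means and error bars for the SD (n = 3). The healthy points are above the ischemic points in every panel, while the ischemic and border zone points overlap at the 747 bp position of MYOZ2 and the 35440 bp position of CMYA5.

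The genes also differed in how much of the span is exon. Exons fill 78.4% of the TCAP span and 32.7% of the DES span, against 0.584% to 10.2% in the other 6 genes. Over the 8 genes the ischemic log2 fold change had a Spearman rho of 0.55 with the exon share and -0.67 with the span, where a positive rho means a smaller fall at a larger exon share. Over the 12 heart muscle cell markers the same values were 0.34 and -0.27, and over all 2384 positions 0.13 and -0.09. These are descriptions across genes that share the same 9 libraries. The part of exon share or span length in the fold changes was not tested.

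Of 42 other genes listed for the Z-disc, 18 were in the table and 14 were measured. By limma 6 of the 14 fell and 1 rose in ischemic against healthy myocardium, beside 9.1% and 18.5% of all positions. Limma-voom called 6 lower and 3 higher, beside 217 lower and 532 higher of all 2384 positions. The higher ones were CAPN3 and, of the calcineurin pathway, RCAN1 (1.38 ± 0.49, limma adjusted p = 0.0685) and PPP3CA (0.62 ± 0.27, limma adjusted p = 0.12). The median log2 fold change was -0.77. MYOT, myotilin, a partner of alpha-actinin, averaged 0.826 ± 0.462 RPKM in ischemic and 9.99 ± 1.64 RPKM in healthy myocardium (SD, n = 3 each), a log2 fold change of -3.54 ± 0.44 (limma adjusted p = 0.00164). The muscle ubiquitin ligase genes TRIM63 (-2.34 ± 0.36, adjusted p = 0.0033), FBXO32 (-2.03 ± 0.32, adjusted p = 0.0033) and TRIM55 (-1.85 ± 0.49, adjusted p = 0.0261) fell as well. TRIM55 missed the threshold without healthy replicates 1 to 3 (adjusted p = 0.0563, 0.0693 and 0.0748) and in a fit on the 2 groups alone (0.0556).

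The Z-disc gene that rose by limma was CAPN3, the muscle calpain, a calcium-dependent protease that binds titin. It averaged 1.14 ± 0.485 RPKM in ischemic, 0.887 ± 0.304 RPKM in border zone and 0.0833 ± 0.0548 RPKM in healthy myocardium. The log2 fold change was 2.71 ± 0.47 in ischemic against healthy (limma adjusted p = 0.00511), and 2.42 ± 0.47 in border zone against healthy (adjusted p = 0.0265), where 5.79% of all positions rose. The border zone call was lost without border zone replicate 1 or 3 (adjusted p = 0.132 and 0.137), without healthy replicate 1 or 2 (0.0646 and 0.0809), with quantile normalization (0.163), with a pseudocount of 1 (0.0736) and in a fit on the 2 groups alone (0.054). By limma 1 gene of the Z-disc list, CAPN3, passed in border zone against healthy myocardium, and limma-voom also called MYOT lower. In ischemic against border zone myocardium 1 passed by limma, MYOT (-2.43 ± 0.44, adjusted p = 0.0486). Limma-voom called 4 lower, MYOT, FBXO32, FHL1 and TRIM63, beside 65 of all 2384 positions. The limma call of MYOT missed the threshold when any library but ischemic replicate 2 was left out. The adjusted p of MYOT was then 0.089 and 0.154 for ischemic replicates 1 and 3 left out, 0.0968, 0.156 and 0.115 for border zone replicates 1 to 3, and 0.0786, 0.0966 and 0.0936 for healthy replicates 1 to 3.

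Of 42 listed genes of the dystrophin complex and costamere, 11 were in the table and 6 were measured. In ischemic against healthy myocardium 2 fell and 1 rose by limma, beside 9.1% and 18.5% of all positions, with a median log2 fold change of -0.96. In border zone against healthy 0 passed by limma. At an unadjusted p under 0.05 there were 2, LAMC1 lower (-0.58 ± 0.19) and ITGB1 higher (0.65 ± 0.19), beside 510 of all 2384 positions in either direction. Limma-voom called 1 there, ITGB1, which was higher, beside 257 higher and 39 lower of all positions. DMD, dystrophin, averaged 0.195 ± 0.0889 RPKM in ischemic and 1.41 ± 0.149 RPKM in healthy myocardium (SD, n = 3 each), a log2 fold change of -2.40 ± 0.33 (limma adjusted p = 0.00245). LAMC1, the laminin gamma 1 chain of the basement membrane, fell with -1.09 ± 0.19 (adjusted p = 0.00564). ITGB1, integrin beta 1, rose with 0.84 ± 0.19 (adjusted p = 0.0146), and missed the threshold with quantile normalization (0.0847). VCL, vinculin, had -0.82 ± 0.31 (adjusted p = 0.0828), and limma-voom called it lower.

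Of the 26 genes of other filaments, desmosomes and the nuclear lamina, 4 were in the table and 3 were measured, and 0 passed in ischemic against healthy myocardium by limma, also at an unadjusted p under 0.05 or by limma-voom. LMNA, the A-type lamin, had a log2 fold change of 0.46 ± 0.27 (limma adjusted p = 0.237), JUP, plakoglobin, -0.31 ± 0.30 (adjusted p = 0.474) and CTNNB1, beta-catenin, -0.30 ± 0.19 (adjusted p = 0.275).

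**Figure D4:**
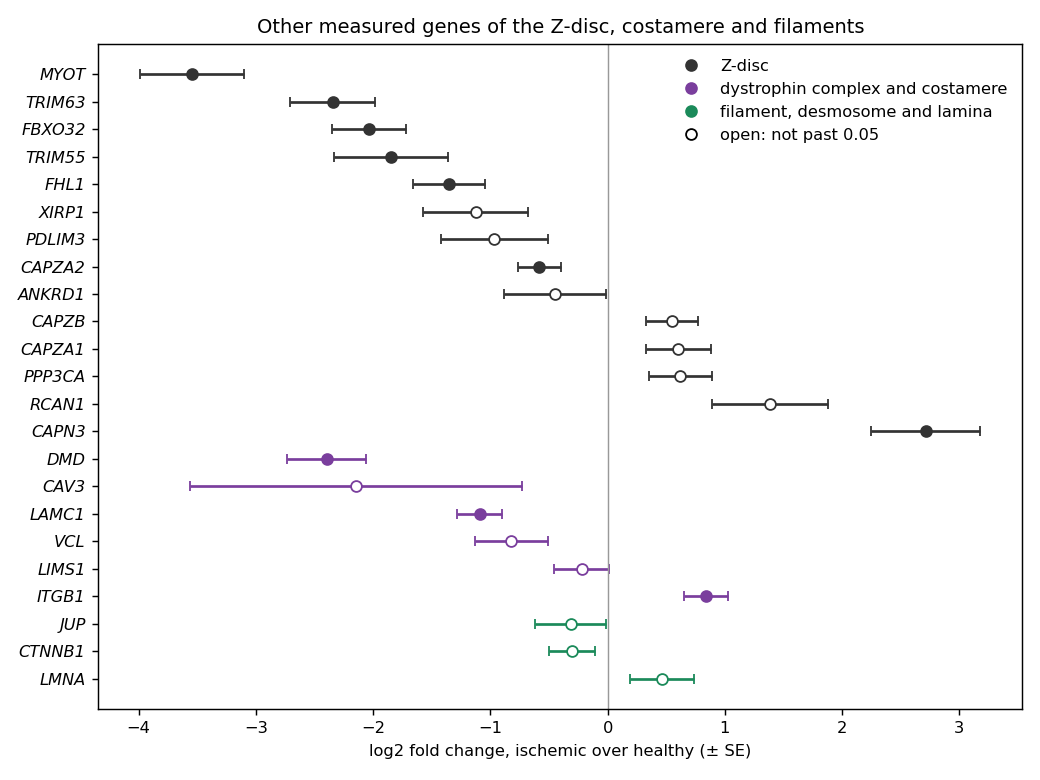
Log2 fold change of ischemic over healthy for the 23 measured genes of the other Z-disc, costamere and filament lists, with error bars for the SE of the limma fit and filled points for an adjusted p under 0.05. MYOT lies furthest to the left at -3.54 and CAPN3 furthest to the right at 2.71.

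ACTN1, the alpha-actinin of non-muscle cells, gives a measure beside ACTN2. Its position spans 17153 bp, of which 4.68% is exon, against 72129 bp and 6.57% for ACTN2. Whether that position covers the whole gene was not tested. ACTN1 had 2.60, 1.69 and 2.11 RPKM in ischemic, 2.92, 1.83 and 1.33 RPKM in border zone and 1.28, 1.02 and 1.28 RPKM in healthy libraries. Every ischemic value was above every healthy value, but the difference did not pass (log2 fold change 0.77 ± 0.30, limma adjusted p = 0.0874). ACTN2 over ACTN1 was 0.718, 2.65 and 1.08 in ischemic, 3.54, 7.75 and 7.07 in border zone and 18.9, 24.1 and 13.2 in healthy myocardium of pigs 1 to 3. The ratio was lowest in ischemic and highest in healthy myocardium in each pig, with no overlap between zones. With 0.1 RPKM added to each gene, its ischemic minus healthy difference was -3.74 on the log2 scale (exact permutation test, p = 0.1, the smallest possible, and 0.129 adjusted over 9 ratio tests). SGCE, the sarcoglycan of many tissues, was below the filter, at 0.112 ± 0.0473 RPKM in ischemic, 0.179 ± 0.121 RPKM in border zone and 0.331 ± 0.110 RPKM in healthy myocardium (SD, n = 3 each).

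The heart muscle cell markers fell too, with a median log2 fold change of -1.81 in ischemic against healthy myocardium. By limma 7 of 12 measured were lower and 0 higher, beside 9.1% and 18.5% of all positions. Limma-voom called 10 lower and 0 higher, beside 217 and 532 of all 2384 positions. In border zone against healthy and in ischemic against border zone 0 of the 12 passed by limma. Limma-voom called 3 and 2 lower there, beside 39 and 65 of all positions. Among the 12, NPPA did not fall (0.66 ± 1.61, limma adjusted p = 0.791), with 8.46, 0 and 10.2 RPKM in the ischemic libraries. Its value of 0 lowers the marker mean in ischemic replicate 2. The other markers had log2 fold changes from -3.07 for CKMT2 to -1.08 for FABP3. That range holds the log2 fold changes of CSRP3, ACTN2 and TCAP, but not that of DES. Against the mean of these 12 markers in the same library, CSRP3 and ACTN2 stood lower in ischemic than in healthy myocardium, by log2 differences of -1.19 each. TCAP and DES stood higher in ischemic than in healthy myocardium, by 0.66 and 1.25. For each of these 4 genes the 3 ischemic values did not overlap the 3 healthy values (exact permutation test, p = 0.1 each, the smallest possible, and 0.24 adjusted over 24 tests). How often other measured genes do not overlap on this scale was not computed. DES also stood higher in border zone than in healthy libraries, by 0.86, without overlap, while CSRP3, ACTN2 and TCAP differed by 0.02, -0.18 and -0.17 with overlap. The directions of MYOZ2, CMYA5 and SGCA against the markers changed with a pseudocount of 1 and are not given. SGCB had a difference of 0.69 with overlap (exact permutation test, p = 0.3), between 0.47 and 1.00 over its 9 alternatives.

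**Figure D5:**
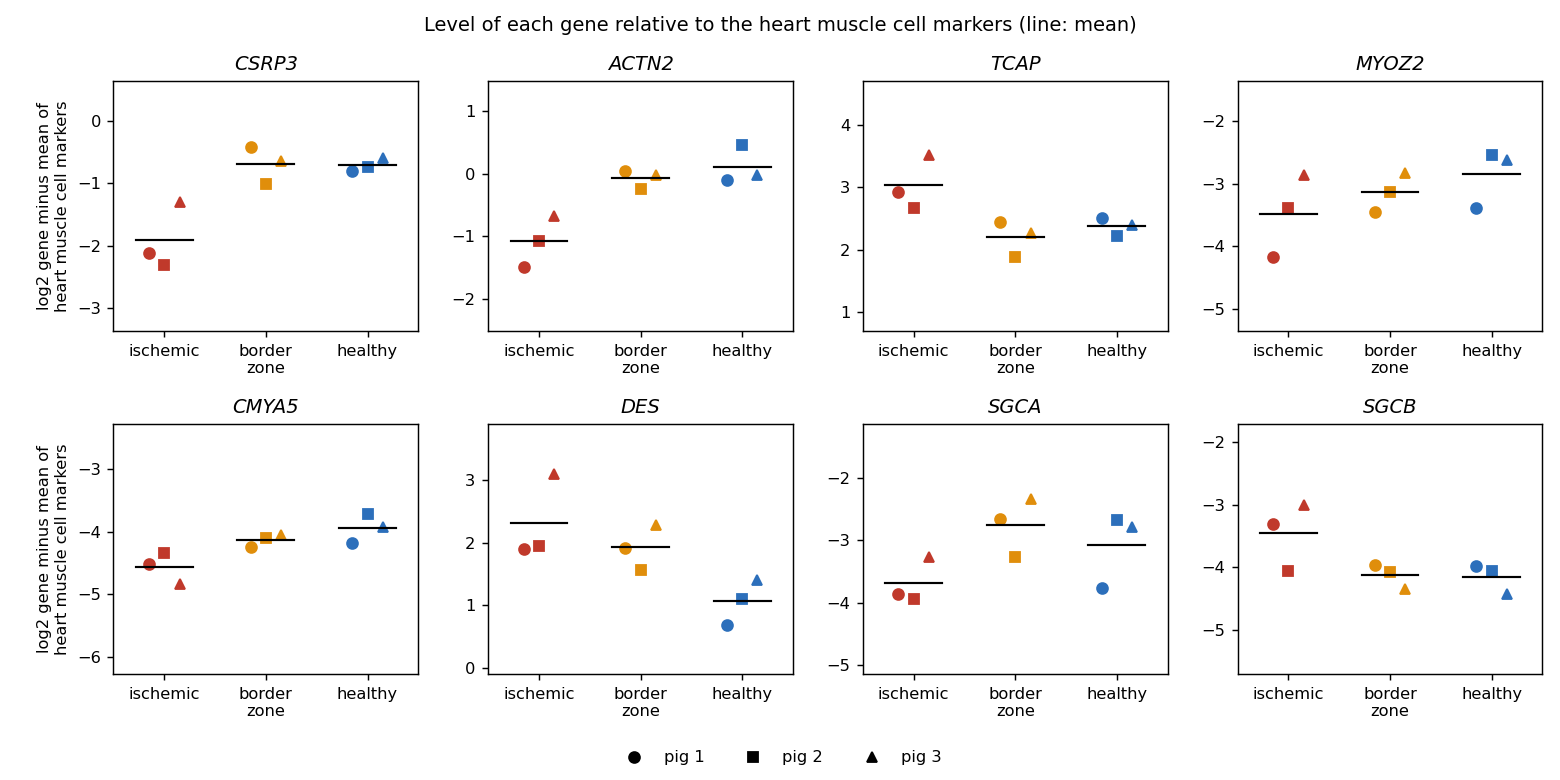
Log2(RPKM + 0.1) of each gene minus the mean of the same over 12 heart muscle cell markers in the library, with ischemic, border zone and healthy groups from left to right, symbols for pigs and lines for means. Each panel spans the same range of log2 units, and the ischemic points of CSRP3 and ACTN2 lie below, those of TCAP above, both other zones.

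Markers of immune cells, endothelium and fibroblasts summed higher in ischemic than in healthy libraries, though not every marker did so. The summed level of the 8 macrophage and monocyte markers in the table was 19.1 to 23.0 RPKM in ischemic, 8.07 to 17.1 RPKM in border zone and 2.01 to 4.10 RPKM in healthy libraries, with CD163 listed at 0. The 5 neutrophil markers summed to 14.6 to 32.1 RPKM in ischemic, 6.71 to 12.4 RPKM in border zone and 0.0813 to 0.323 RPKM in healthy libraries. The 4 endothelial markers summed to 14.2 to 32.2 RPKM in ischemic, 8.18 to 18.0 RPKM in border zone and 6.58 to 8.84 RPKM in healthy libraries, and the 5 fibroblast markers to 12.2 to 16.7, 10.4 to 12.7 and 8.46 to 11.6 RPKM in the same order of zones. The 10 lymphocyte markers summed to 4.50 to 7.03 RPKM in ischemic, 3.40 to 7.30 RPKM in border zone and 1.47 to 3.46 RPKM in healthy libraries. By limma, ischemic against healthy, 3 of 5 measured macrophage, 4 of 5 neutrophil and 3 of 4 endothelial markers were higher. So were 2 of 5 fibroblast and 1 of 4 lymphocyte markers, beside 18.5% of all positions, and 0 were lower. C1QA (-1.04), C1QC (-0.90), LUM (-0.63) and DCN (-0.57) had negative log2 fold changes that did not pass. Of 13 skeletal muscle markers in the table only TNNT1 and ACTA1, which fetal or adult heart also transcribes, passed the filter, and MYH4, TNNT3 and MYOD1 were listed at 0. The part of the cell mixture in the falls of the 8 genes was not tested.

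Across the 9 libraries, 5 of the 8 genes rose and fell together and 3 stood apart. CSRP3, ACTN2, MYOZ2, CMYA5 and SGCA each correlated with the mean profile of the other 7 genes at a Pearson r of 0.93 to 0.99 on log2 values. TCAP had 0.80, SGCB 0.77 and DES 0.74. Among pairs, CSRP3 with ACTN2 was the highest at 0.98 and DES with SGCB the lowest at 0.37, while TCAP with SGCB reached 0.90. The libraries share zone, depth and animal, so these values describe the 9 libraries only.

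Outside the 8 genes, the measured genes with profiles most like their mean were PDE3A (Pearson r = 0.99 over 9 libraries), CAMK2D (0.99), MYOCD (0.99), IGF1R (0.99) and ACACB (0.98). PDE3A, the first of them, had 1.01, 2.08 and 1.03 RPKM in ischemic, 4.34, 6.19 and 4.50 RPKM in border zone and 12.7, 13.3 and 10.2 RPKM in healthy libraries of pigs 1 to 3. As in ACTN2, the zones did not overlap and pig 2 was the highest within each.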

How the data were processed

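The authors aligned reads to susScr3 with Bowtie, per the submitters' processing notes, and deposited RPKM per library for each transcript position, scaled by the whole annotated span. The sources used here do not give the version, the counter or the treatment of duplicate reads. RPKM times span times library total was whole within 0.01 reads for 100% of nonzero values, which gave totals and reads. Among nested positions, the outer one held fewer reads than the inner in 5 of 47 pairs on opposite strands and 0 of 139 on the same strand. Coordinates are as listed in the table. Symbols came from a Sscrofa11.1 RefSeq table and matched 98.2% of positions.

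Values were taken to log2(RPKM + 0.1), positions whose mean reached 0.5 RPKM were kept, and limma 3.58.1 (R 4.3.3, trend and robust eBayes) was fitted to all 9 libraries, 2-sided, with an adjusted p threshold of 0.05. A fold change on this scale understates the change of weakly transcribed genes. Exact permutation tests used scipy 1.17.1. Same-numbered libraries were taken to come from the same pig, by the number in the sample titles. Pig as a block is a paired fit under that assignment. Deviations from the group means correlated at r of -0.04 to 0.18 within a pig and -0.16 to 0.08 between pigs.

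The members and gene lists were chosen with earlier results of these data known. Named were all members, up to 5 list genes past the threshold in ischemic and up to 3 in border zone against healthy myocardium by size of change, the measured non-muscle relatives and the 5 genes with the most similar profile. VCL, JUP, CTNNB1, LMNA, FHL1, RCAN1 and PPP3CA, MYOT against the border zone, and the ratios of TCAP to CSRP3 and DES to ACTN2 were added after their values were seen. No sequences are shown.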

Additional observations from a re-analysis of the deposited data

How the results depend on the processing

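In ischemic against healthy myocardium the count of the 8 genes that fell was 6, and stayed between 5 and 7 except with the filter raised to 2 RPKM, where 4 genes were tested and 3 fell; it was 5 to 6 with a library left out. In border zone against healthy it was 0 in limma under all settings and 4 with limma-voom. In ischemic against border zone it was 3, and 4 with limma-voom, 2 with a pseudocount of 1, 2 with the filter at 2 RPKM, 1 without a filter, 1 with equal medians, 1 with quantile normalization, 0 in a fit on the 2 groups alone and 0 to 3 with a library left out. Pig as a replicate block gave 7, 0 and 3 genes in these comparisons, adding SGCB in the first, and changed no other call among the 8 genes.

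Over all positions, 659 passed in ischemic against healthy, 346 with the filter at 2 RPKM and 362 to 698 with a library left out (362 without healthy replicate 2 and 412 without healthy replicate 3). In border zone against healthy 143 passed, and 48 with a pseudocount of 1, 95 without a filter, 76 with the filter at 2 RPKM, 84 with equal medians, 85 with quantile normalization, 296 with limma-voom and 36 to 174 with a library left out (36 without border zone replicate 1, 37 without its replicate 3, and 63, 42 and 65 for the 3 healthy replicates in order). In ischemic against border zone 27 passed, and 10 with a pseudocount of 1, 3 without a filter, 8 with equal medians, 5 with quantile normalization, 1 on the 2 groups alone, 92 with limma-voom and 0 to 39 with a library left out (1 without ischemic replicate 3, 3, 4 and 0 for the 3 border zone replicates, and 2, 10 and 0 for the 3 healthy ones, in order). The counts at 2 RPKM and without a filter are over fewer or more positions. For the others the cause was not tested.

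A pair of log2 fold changes that had not passed changed sign, that of DES in border zone against healthy (-0.16 with equal medians) and that of SGCB in ischemic against border zone (0.23 with quantile normalization). Reads limit SGCA and SGCB most, and the floors given for MYOZ2 cover counting error only.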
